A study of Mus musculus with 8 samples.

Results

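CGE-derived interneurons are the inhibitory neurons that arise in the caudal ganglionic eminence of the ventral forebrain and migrate into the cortex. They were taken here as the cells that the authors annotated Inh_CGE in a single-cell RNA-seq table of mouse cortex, which gave 1023 cells of 60989. Of these, 756 cells came from 3 libraries at P1 and 267 from 2 libraries at P7, the first and seventh postnatal days. No cell among the 128 interneurons annotated at P21 carried the name. Counting error alone would allow a share of up to 2.34% of them, but clusters were first named within each age. The absence of the name therefore sets no limit on CGE-derived cells at P21.

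The animals were wild-type C57BL/6 mice, untreated at both ages, and each library pooled somatosensory and motor cortex from several animals of both sexes. Live cells were sorted by dye and captured in droplets, although the protocol text of the labels also mentions a sort of tdTomato-labelled projection neurons. The libraries analysed held 8557 to 10808 cells at P1 and 11177 to 11310 at P7. The table marks each library by a number, 3, 4 and 5 at P1 and 1 and 2 at P7, and no label ties a number to a sample. The P7 libraries carry the same date in their titles and may be captures of the same pool, and each P1 library has its own. The p-values therefore measure the spread between these libraries only. Date and age cannot be told apart, since no date was shared by both ages. Barcodes repeated between libraries were about as frequent for CGE cells, 76 of 1023 (7.43%), as for the whole table (7.03%), and a single barcode was held by CGE cells of separate libraries.

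Cortical interneurons come mainly from the medial and the caudal ganglionic eminence. The medial eminence (MGE) gives the cells that express somatostatin (Sst) or parvalbumin. The caudal eminence gives the cells that express vasoactive intestinal peptide (Vip), many reelin cells and neurogliaform cells, most of which settle in upper layers. All make GABA through the enzymes encoded by Gad1 and Gad2, and the transcription factor Prox1 is kept on in the caudal lineage. The table holds no expression values, so Gad1, Gad2 and Prox1 were not examined here and the authors' name was used as it stands. The names in use differed between ages. At P1 an interneuron was named CGE or Sst only, while at P7 MGE, Npy (neuropeptide Y) and Vip were used as well, so that a Vip cell at P7 does not count as CGE although Vip cells arise in that eminence.

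Cells named CGE made up a smaller part of the P7 libraries than of the P1 libraries, by an amount that turned on how Vip cells at P7 were counted, and the P1 libraries differed among themselves. Of all cells, they were 1.79% in library 3 (Wilson 95% interval 1.55 to 2.05), 3.40% in library 4 (3.05 to 3.79) and 2.93% in library 5 (2.60 to 3.31). At P7 they were 1.15% in library 1 (0.969 to 1.36) and 1.23% in library 2 (1.04 to 1.45). These intervals cover counting error alone. The ages did not overlap, and library 3 stood between the other P1 libraries and those of P7. The P1 mean was 2.71% ± 0.831 (SD, n = 3) and the P7 mean 1.19% ± 0.0540 (SD, n = 2). The difference was -1.52 percentage points, with an adjusted p of 0.3 when libraries were permuted between ages (exact permutation test, two-sided), and so was not called. With 3 libraries against 2, that test cannot go below 0.1. With Vip cells counted as CGE at P7, the share was 2.28% in library 1 and 2.34% in library 2, both above library 3. The difference was then -0.399 percentage points (exact permutation test, adjusted p = 0.9).

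Limma, which estimates a spread from all types together, called the lower share at P7 for the CGE name alone. It was run on logit shares of the 8 types with at least 20 cells in each library and gave a log2 difference of -1.16 for CGE (adjusted p = 0.00253). It called 50% of the types tested, and it used the same spread for every type. The CGE call therefore rests on that shared spread. It was lost with Vip joined to CGE, an alternative added after seeing the data, where limma gave a log2 difference of -0.18 (adjusted p = 0.563).

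As a share of interneurons the CGE name covered 19.0%, 37.7% and 31.7% at P1, with a mean of 29.5% ± 9.56 (SD, n = 3). At P7, where more names divided the class, it covered 7.07% and 7.70%, with a mean of 7.38% ± 0.450 (SD, n = 2). Sst was the only other interneuron name used at both ages, but at P1 it covered every interneuron not named CGE, so it need not hold the same cells at P7. Of CGE and Sst cells together, CGE held 19.0%, 37.7% and 31.7% in P1 libraries 3, 4 and 5 and 18.6% and 21.2% in P7 libraries 1 and 2. Here the ages overlapped, since library 3 lay between the P7 libraries. The difference of -9.56 percentage points was not called (exact permutation test, adjusted p = 0.3). It ranged from -14.8 without library 3 to -5.42 without library 4. With Vip cells joined to CGE at P7 it turned to 3.09 (adjusted p = 0.9, exact permutation test). With MGE cells joined to Sst at P7, also added after seeing the data, it was -20.1, and with MGE and Npy cells joined it was -21.5 (adjusted p = 0.2 in both, exact permutation test). CGE then held 8.81% and 9.86% (MGE joined) or 7.59% and 8.28% (both joined) in P7 libraries 1 and 2, and the ages no longer overlapped.

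**Figure D1:**
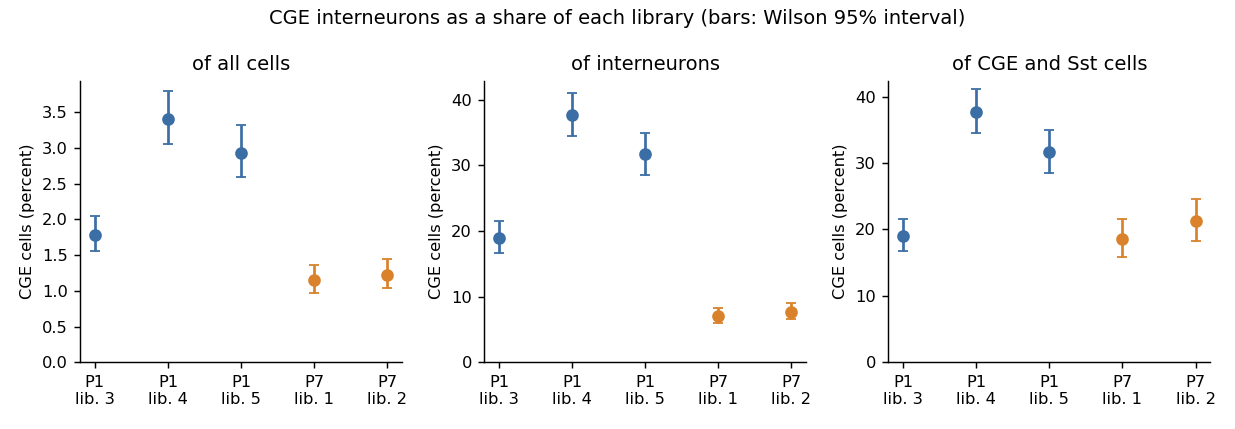
Share of CGE cells in each library (vertical axes, percent) of all cells, of interneurons and of CGE and Sst cells; points are the 3 P1 libraries (blue) and 2 P7 libraries (orange), bars are Wilson 95% intervals. Library 3, at 1.79% of all cells, lies between the other P1 libraries and those of P7, and of CGE and Sst cells it lies at 19.0%, between the P7 libraries.

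The P1 cells fell into 4 subclusters of the authors' annotation, and one of them was unlike the others in depth. Subcluster P1_100 was the largest, with 309 cells, followed by P1_101 with 205, P1_102 with 126 and P1_103 with 116. The marker genes that would tell these groups apart were not examined, so they are called here by their names in the table. All 267 CGE cells at P7 were in a single subcluster, P7_And_8_3. Subclusters had been defined within each age and are not matched between ages.

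Cells of P1_100 carried more UMIs, the counts of distinct captured transcripts, than the other CGE cells of every P1 library. The median of P1_100 was 6318 UMIs in library 3, 5689.5 in library 4 and 7528 in library 5. The other CGE cells stood at 2992, 2303 and 2720.5 in the same order. All 3 medians of P1_100 lay above those of the rest, with a log2 ratio of 1.28 ± 0.196 (SD, n = 3). Single cells overlapped: 22.0%, 5.70% and 5.63% of the other CGE cells of libraries 3, 4 and 5 lay above the lower quartile of P1_100. Because clusters were defined on expression in these same cells, this is a description and no test was run. Among P1_101, P1_102 and P1_103 the medians ran from 2263 to 3305 UMIs over the 3 libraries. In each of these subclusters the lowest value was that of library 4.

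The number of genes followed the UMIs. P1_100 had a median of 2699 ± 209 genes (SD, n = 3) over libraries and the other CGE cells 1442 ± 130 (SD, n = 3), a log2 ratio of 0.91 ± 0.114 (SD, n = 3). Under 1500 genes were found in 4.90% ± 4.02 (SD, n = 3) of P1_100 cells. The values were 54.9% ± 13.0 (SD, n = 3) for P1_101, 60.9% ± 21.4 (SD, n = 3) for P1_102 and 59.7% ± 20.7 (SD, n = 3) for P1_103. Most cells of the latter 3 subclusters, averaged over libraries, thus lay between 1500 genes and the minimum of 1000 that the authors set for keeping a cell. This did not hold in each library. For P1_101, P1_102 and P1_103 the values were 50%, 40% and 40.9% in library 3, 69.6%, 82.7% and 81.8% in library 4, and 45.1%, 60% and 56.4% in library 5. In all, the subcluster accounted for 54.8% of the variance of log2 UMIs among the 756 P1 cells, and the library for 14.0%, each taken alone. These shares overlap, since subcluster and library together accounted for 59.3%.

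The other interneuron type of the same libraries lay between both groups. Sst cells had medians of 3975, 3135 and 3901.5 UMIs in libraries 3, 4 and 5. P1_100 was above them by 0.83 ± 0.143 (SD, n = 3) on the log2 scale, and the other CGE cells had a log2 ratio to Sst of -0.46 ± 0.0564 (SD, n = 3). The CGE name at P1 therefore spanned cells on both sides of the Sst median in each library. The sources used here do not say how the authors handled doublets. No doublet caller was run, and the part of doublets in the UMI-rich subcluster was not tested.

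**Figure D2:**
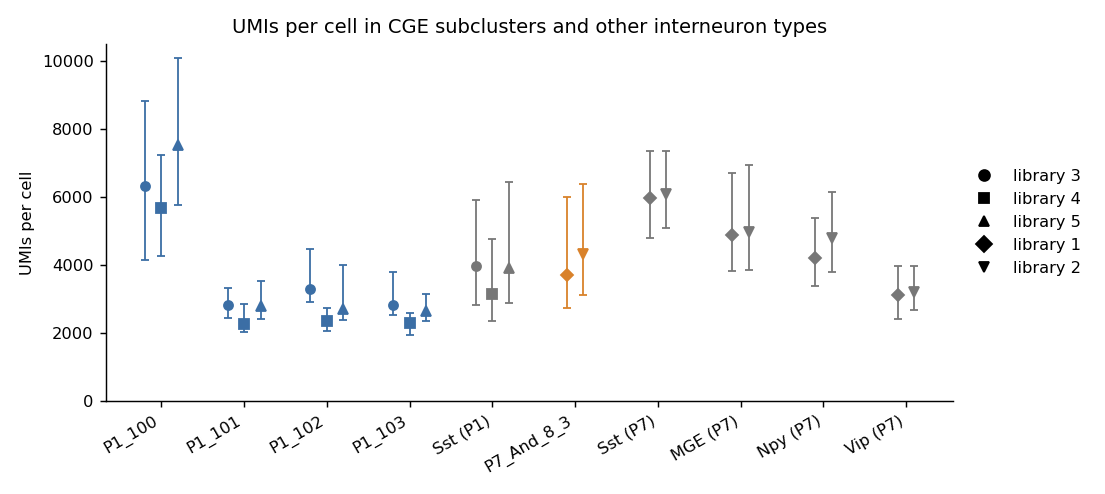
UMIs per cell (vertical axis) in the CGE subclusters of P1 (blue) and P7 (orange) and in other interneuron types (grey); each marker is the median of a library and its bar runs from the lower to the upper quartile of cells. P1_100 stands at 5689.5 to 7528 UMIs, above the 2263 to 3305 of the other P1 subclusters and above Sst at P1.

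The P1 libraries differed in how many UMI-poor CGE cells they held and much less in P1_100. Per 1000 cells of the library, P1_100 stood at 12.4 in library 3 (Wilson 95% interval 10.5 to 14.7), 9.16 in library 4 (7.40 to 11.3) and 10.6 in library 5 (8.67 to 13.0). The other 3 subclusters together stood at 5.46 (4.23 to 7.03), 24.9 (21.9 to 28.2) and 18.7 (16.0 to 21.8) per 1000. The highest library exceeded the lowest by 1.35 times for P1_100 and by 4.55 times for the rest. The intervals of P1_100 overlapped for all pairs of libraries, and those of the rest for none.

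As a share of CGE cells, P1_100 held 69.4% (Wilson 95% interval 62.6 to 75.5) in library 3, 26.9% (22.3 to 32.1) in library 4 and 36.3% (30.6 to 42.4) in library 5. P1_101 held 11.4%, 29.5% and 36.3%, P1_102 held 7.77%, 26.0% and 12.0%, and P1_103 held 11.4%, 17.6% and 15.5%. Library 3 was thus dominated by the UMI-rich subcluster, and libraries 4 and 5 by the others. The unevenness, as Cramer's V of the subcluster counts, was 0.424 for libraries 3 and 4, 0.347 for 3 and 5 and 0.189 for 4 and 5. Since cells of P1_100 are rich in UMIs, they supplied 82.6% of the CGE UMIs of library 3, 46.7% of those of library 4 and 58.8% of those of library 5. Among cells with at least 1500 genes, P1_100 made up 79.8%, 59.4% and 53.0% of CGE cells.

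**Figure D3:**
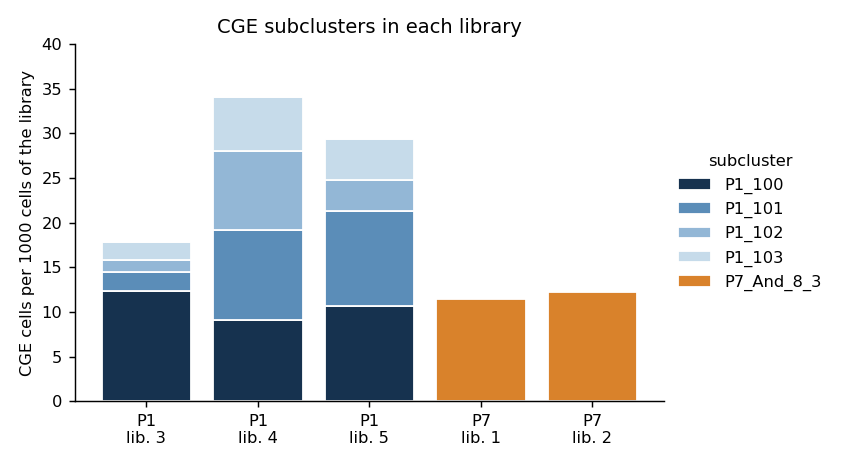
CGE cells per 1000 cells of each library (vertical axis), stacked by subcluster, for 3 P1 and 2 P7 libraries. P1_100 stands at 9.16 to 12.4 per 1000 in all P1 libraries, while the other P1 subclusters together run from 5.46 in library 3 to 24.9 in library 4.

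The order of P1 libraries in median UMIs of all CGE cells was that of their P1_100 share. The CGE cells outside P1_100 had the same order, at 2992, 2303 and 2720.5 UMIs in libraries 3, 4 and 5. What part makeup and depth within subclusters had in this was not tested. Median UMIs of all CGE cells were 4677 in library 3, 2523.5 in library 4 and 3542 in library 5, and 3694.5 and 4318 in P7 libraries 1 and 2. The P7 libraries lay inside the range of P1. The P1 mean was 3581 ± 1077 (SD, n = 3) and the P7 mean 4006 ± 441 (SD, n = 2), and the difference of 425 UMIs was not called (exact permutation test, adjusted p = 0.7). Without library 4 it was -103, and with a minimum of 1500 genes per cell it was -685. Without P1_100 it was 1334 UMIs, and the P7 libraries lay above all P1 libraries (adjusted p = 0.1, exact permutation test, the smallest it allows). P1_100 is the UMI-rich subcluster, so leaving it out lowers the P1 medians of UMIs and genes by construction. That p-value is therefore no test of age. Median genes were 2113, 1412.5 and 1796 at P1 and 1835 and 2068 at P7, with a difference of 178 (adjusted p = 0.7, exact permutation test) that turned to -3.00 without library 4 and to -204 with that minimum, and was 510 without P1_100. In limma on log2 medians, CGE had an adjusted p of 0.52 (UMIs) and 0.513 (genes), beside 25% and 12.5% of the 8 types called.

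Cells of a library were not of like depth at P7 either, though a single subcluster held them all. The upper quartile of UMIs was 2.12 ± 0.117 (SD, n = 2) times the lower in CGE cells. It was 1.78 ± 0.0394 (SD, n = 2) in MGE, 1.61 ± 0.0199 (SD, n = 2) in Npy, 1.57 ± 0.122 (SD, n = 2) in Vip and 1.49 ± 0.0578 (SD, n = 2) in Sst. CGE thus had the widest spread of the 5 names in both P7 libraries. Over 5000 UMIs were found in 33.1% and 38.0% of CGE cells at P7, against 44.6%, 20.2% and 36.7% in P1 libraries 3, 4 and 5.

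Against Sst cells of the same library, CGE cells had fewer UMIs in 4 of 5 libraries. The log2 ratio of medians was 0.23 in library 3, -0.31 in library 4 and -0.14 in library 5, and -0.69 and -0.50 in P7 libraries 1 and 2. The mean of -0.28 ± 0.354 (SD, n = 5) did not pass a two-sided exact sign-flip permutation test (adjusted p = 0.25), which cannot go below 0.0625 with 5 libraries. It was -0.09 with at least 1500 genes per cell, where all P1 libraries were above 0, and -0.51 without P1_100, where all 5 libraries were below 0 (adjusted p = 0.0833, exact sign-flip permutation test). P1_100 is the UMI-rich subcluster of P1, so leaving it out lowers the P1 ratios by construction. The last p-value is therefore no support for fewer UMIs in CGE cells. For P1 alone the contrast was -0.07 ± 0.280 (SD, n = 3), and for P7 alone -0.59 ± 0.138 (SD, n = 2). Both P7 libraries lay below all P1 libraries, but the contrast was not called as different between ages (exact permutation test, adjusted p = 0.3). Without P1_100 the ages overlapped, and the difference of the contrast between them went from -0.52 to -0.14. At P7 Sst stood at 5966 and 6091 UMIs, so that the CGE medians were 0.619 and 0.709 times those of Sst. For genes the log2 ratio was -0.19 ± 0.253 (SD, n = 5), with the same adjusted p in the sign-flip permutation test. It was -0.05 with at least 1500 genes per cell and -0.36 without P1_100.

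Averaged over the UMI distribution of CGE, cells of like depth held like mean numbers of genes in both types, but not in every range of UMIs. With Sst cells weighted to the UMI distribution of CGE in bins of 500 UMIs, the log2 ratio of mean genes ran from -0.02 in library 1 to 0.02 in library 3. The mean was -0.002 ± 0.0171 (SD, n = 5) with an adjusted p of 0.875 in the exact sign-flip permutation test. In linear terms, CGE cells had 1.61% fewer genes than matched Sst cells in library 1 and 1.10% more in library 3, the extremes of the 5 libraries. In cells with 3000 to 4000 UMIs, the log2 ratio of median genes was -0.0566 (p = 0.0625, adjusted p = 0.09375, exact sign-flip permutation test). From 3000 to below 4500 UMIs, CGE medians were 1820.5 and 1827 genes in P7 libraries 1 and 2, against 2000.5 and 1981.5 in Sst. In P1 libraries 3, 4 and 5 they were 1795, 1775.5 and 1808 against 1750, 1833.5 and 1794. Across cells, UMIs and genes of CGE had a Spearman rho of 0.972 to 0.994 within libraries.

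The mitochondrial share of UMIs, which is commonly read as a sign of stress or damage in dissociated cells, was lower in CGE than in Sst in all 5 libraries. It was 3.48%, 3.66% and 3.37% in CGE of P1 libraries 3, 4 and 5, against 4.11%, 4.67% and 3.92% in Sst. At P7 it was 4.50% and 4.54% in CGE of libraries 1 and 2, against 5.50% and 5.25% in Sst. Sst cells at P7 fell into several subclusters, and not all of them lay above CGE. P7_And_8_6, with 82 and 68 Sst cells, stood at 4.39% and 4.29% in libraries 1 and 2, and the other Sst subclusters at 5.13% to 6.01%. The difference between CGE and Sst as a whole was -0.78 ± 0.210 percentage points (SD, n = 5). Its p of 0.0625 in the exact sign-flip permutation test is the smallest that 5 libraries allow, and the adjusted p was 0.25. Among cells under 5% the difference was -0.18 (p = 0.25, exact sign-flip permutation test), with CGE below Sst in the 3 P1 libraries and above it by 0.0405 and 0.111 in P7 libraries 1 and 2. That cut falls on the measure compared, and at P7 it removed on average 33.0% of CGE cells and 60.1% of Sst cells. A narrower gap among the cells left was thus built in. With Sst cells weighted to the UMIs of CGE, an alternative chosen after seeing the data, the difference of means was between -1.51 and -0.494 percentage points in the 5 libraries. The unweighted difference of medians was -0.73 ± 0.241 (SD, n = 3) over the P1 libraries and -0.86 ± 0.202 (SD, n = 2) over those of P7 (adjusted p = 0.6, exact permutation test).

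Between ages, the mitochondrial share of CGE cells averaged 3.50% ± 0.150 (SD, n = 3) over P1 libraries and 4.52% ± 0.0272 (SD, n = 2) over P7 libraries. The ages did not overlap, and the difference of 1.02 percentage points had the smallest p that the exact permutation test allows here, 0.1 (adjusted p = 0.3). A share of 5% or more was found in 15.0%, 11.2% and 6.77% of CGE cells of P1 libraries 3, 4 and 5. It was found in 33.1% and 32.8% of those of P7. Sst cells stood higher at P7 too, at 5.37% ± 0.175 (SD, n = 2) against 4.23% ± 0.389 (SD, n = 3).

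**Figure D4:**
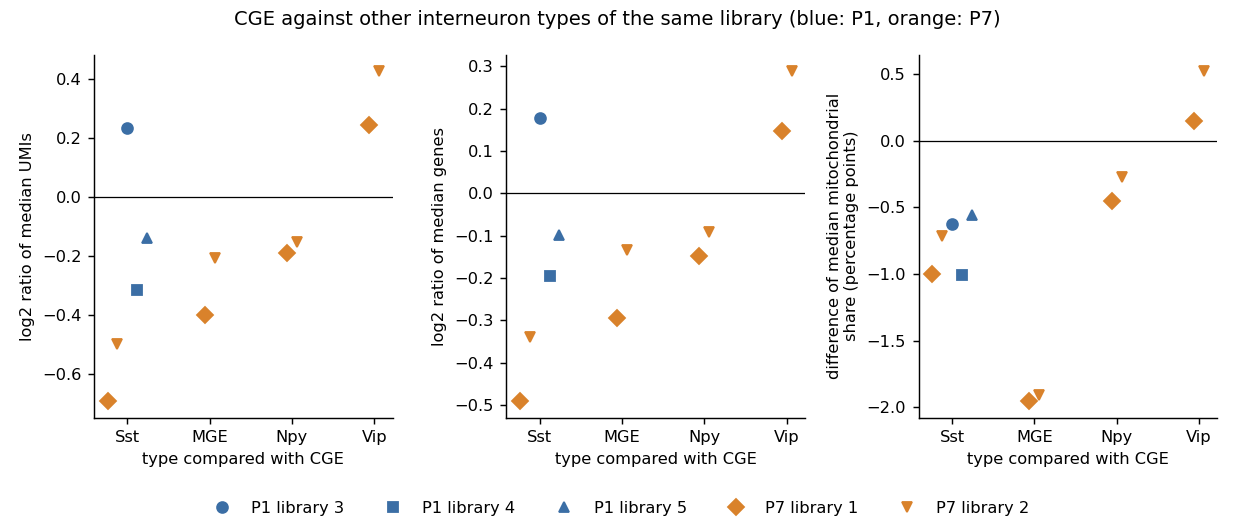
CGE against Sst, MGE, Npy and Vip cells of the same library, as log2 ratios of median UMIs (left) and genes (middle) and as the difference of the median mitochondrial share in percentage points (right); blue markers are P1 libraries and orange markers P7 libraries. For mitochondrial share, CGE lies below Sst in all 5 libraries and below MGE, with differences of -1.95 and -1.91 percentage points, and above Vip in both P7 libraries.

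The gap to Sst in mitochondrial share was largest among the shallowest cells. Below 3000 UMIs, CGE stood at 3.26%, 3.47% and 3.38% in P1 libraries 3, 4 and 5 and Sst at 4.56%, 4.90% and 4.51%. In P7 libraries 1 and 2 these cells stood at 4.42% and 4.37% in CGE and at 7.16% and 6.48% in Sst. From 6500 UMIs up, the P1 differences were -0.02, 0.19 and 0.17 percentage points, and those of P7 were -1.13 and -0.47. Over 4 ranges of UMIs in 5 libraries, CGE was below Sst in 18 of 20, each with at least 24 cells of either type. Sst cells of greater depth had a lower mitochondrial share, with a Spearman rho of -0.437 to -0.134 across cells within libraries, and CGE cells did not, with rho of 0.0146 to 0.191. These correlations are descriptions, and both measures share the UMI count of the cell.

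**Figure D5:**
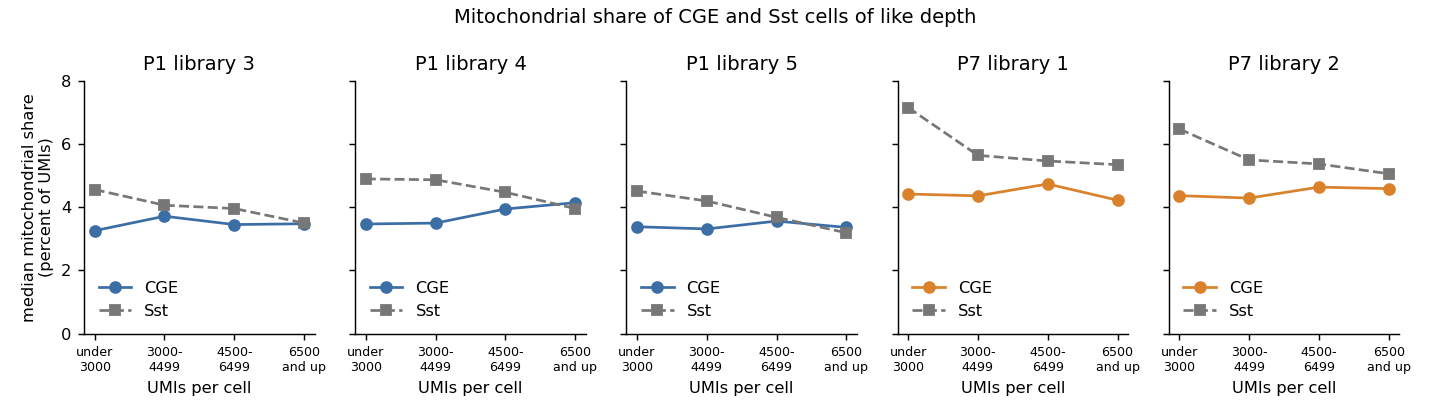
Median mitochondrial share (vertical axis, percent of UMIs) of CGE cells (solid) and Sst cells (dashed) in 4 ranges of UMIs per cell (horizontal axis), 1 panel per library. CGE stays between 3.26% and 4.15% at P1 and between 4.23% and 4.74% at P7, while Sst is highest in the cells under 3000 UMIs, at 4.51% to 7.16%.

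Within P1, the subclusters differed less in mitochondrial share than in UMIs. P1_100 had a median of 3.55%, 4.30% and 3.40% in libraries 3, 4 and 5 and the other CGE cells 3.34%, 3.43% and 3.33%. The difference was 0.38 ± 0.425 percentage points (SD, n = 3) and came mostly from library 4, at 0.867. Both groups lay below Sst in every P1 library, P1_100 by -0.48 ± 0.101 (SD, n = 3) and the others by -0.86 ± 0.332 (SD, n = 3). These differences were not matched for depth, and P1_100 had more UMIs than Sst. From 6500 UMIs up, CGE and Sst cells differed by -0.02, 0.19 and 0.17 percentage points in libraries 3, 4 and 5. Subclusters accounted for 4.19% of the variance of mitochondrial share among the P1 cells.

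At P7 the CGE cells could be set beside 3 further types, with 2 libraries each and so without a test, since 2 libraries allow no sign-flip p below 0.5. Against MGE, the name of the other main lineage, the log2 ratio of median UMIs was -0.40 in library 1 and -0.21 in library 2. The mitochondrial share was lower in CGE by a wider margin than against any other type, with differences of -1.95 and -1.91 percentage points. MGE cells stood at 6.45% and 6.44%.

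In mitochondrial share, Npy and Vip cells lay closer to CGE than MGE cells did. In median UMIs, Vip cells lay farther from CGE than MGE cells did in library 2. Against Npy the log2 ratio of UMIs was -0.19 and -0.15 in libraries 1 and 2, and the mitochondrial share differed by -0.45 and -0.27 percentage points. Against Vip, CGE cells had more UMIs, with medians of 3694.5 and 4318 against 3114.5 and 3209 and log2 ratios of 0.25 and 0.43. The mitochondrial share of CGE was above that of Vip by 0.149 and 0.523 percentage points, and in cells with 3000 to 4000 UMIs the mean difference turned to -0.13. In both P7 libraries the order of median UMIs from lowest to highest was thus Vip, CGE, Npy, MGE and Sst, and the order of mitochondrial share was Vip, CGE, Npy, Sst and MGE. Among all types with at least 20 cells in the library, CGE was number 6 (library 1) and number 7 (library 2) of 13 from the lowest in median UMIs at P7. At P1, counted likewise from the lowest, it was number 7 of 8 in library 3, number 1 in library 4 and number 3 in library 5.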

How the data were processed

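Per the labels and the methods, the authors aligned 10x Genomics Chromium 3' reads with Cell Ranger 3.0.1 to mm10, then merged the libraries after bringing their coverage to one level. Cells outside 1000 to 6000 genes, over 15000 UMIs or at 10% mitochondrial reads and above were dropped. The authors also removed outlier clusters at each age, and clustered and named cells in Seurat. The deposited table gives UMI counts per cell, genes per cell and the mitochondrial fraction, deposited under a column name that says percent and multiplied here into percent. Values are therefore not absolute RNA content. Library is the number after the dash of the cell identifier. CGE cells held 1085407 to 1241116 UMIs per library at P1 and 581433 to 668393 at P7.

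Members, types and tests were chosen with earlier results of these data known. The items named are the CGE type, all its subclusters, and the types Sst, MGE, Npy and Vip. Shares and medians were computed per library. Ages were compared by an exact permutation test of the difference of means over 10 assignments, and types within libraries by an exact sign-flip permutation test over 32 sign patterns, both two-sided, with Benjamini-Hochberg adjustment within 4 families of 3 or 4 results and a threshold of 0.05. Alternatives were logit shares (0.5 cells added), limma over types, Vip joined to CGE, at least 1500 genes, mitochondrial share under 5%, means, equal weight per subcluster, 3000 to 4000 UMIs, bins of 250 or 1000 UMIs, P7 libraries counted as 1 and each library left out. Leaving out P1_100, matching UMIs for mitochondrial share, joining MGE or Npy to Sst at P7 and limma with Vip joined were chosen after seeing the data. Tested values were counted as kept by sign and side of the threshold alone. That count is no measure of robustness. It holds the CGE share of all cells, which went from -1.52 to -0.399 percentage points with Vip joined. The tests were run on simulated data as a check of the code. For limma the simulated types all had the same spread between libraries. That check therefore says nothing about the shared spread on which the CGE call rests. Software was scipy 1.17.1, numpy 2.4.6 and pandas 2.3.3 in Python 3.11.15, figures were drawn with matplotlib 3.10.9, and limma 3.58.1 ran in R 4.3.3.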

Additional observations from a re-analysis of the deposited data

How the results depend on the processing

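Of the values under alternatives, 19 changed sign, 19 untested ones moved by over 1 SD and 1 passed the threshold. The other 210 kept their sign. Tested ones could move by any amount, since no permutation test here can reach 0.05. Limma called the share of all cells (log2 -1.16, adjusted p = 0.00253), but not with Vip joined to CGE (log2 -0.18, adjusted p = 0.563). No paired analysis was possible because no label or column ties a library of P1 to one of P7. With Vip joined to CGE, the P7 minus P1 difference was -0.399 percentage points of all cells, -15.1 of interneurons and 3.09 of CGE and Sst cells, and that of median UMIs -110. With MGE, or MGE and Npy, joined to Sst, the share of CGE and Sst cells differed by -20.1 and -21.5, and genes at matched UMIs stood at 0.00782 and 0.00863. With at least 1500 genes per cell, the differences of medians were -685 UMIs and -204 genes, genes at matched UMIs against Sst 0.00197 (log2), Npy contrasts -0.0509 for UMIs and -0.0309 for genes, P1_100 against the others 0.94, and Sst contrasts -0.0865 for UMIs and -0.0482 for genes. With means, the difference was -47.3 UMIs, the MGE contrast of mitochondrial share -1.80 percentage points, and those of Npy -0.11 for UMIs and -0.0599 for genes.

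With mitochondrial share under 5%, the Sst contrast of that share was -0.184 and differed between ages by 0.434, genes at matched UMIs stood at 0.00728, and contrasts were -0.54 (UMIs), -0.34 (genes) and -0.0909 (mitochondrial share) for MGE and -0.23 (UMIs) and -0.0276 (mitochondrial share) for Npy. Equal weight per subcluster gave 0.152 for the age difference of the mitochondrial Sst contrast and -0.78, -0.55 and -1.89 for MGE in the same order. Leaving out P1_100, chosen after seeing the data, gave 0.00915 for that age difference, -0.14 (UMIs) and -0.09 (genes) for those of the other Sst contrasts, and P7 minus P1 differences of 1334 UMIs and 510 genes. In cells with 3000 to 4000 UMIs, genes and mitochondrial share were -0.0258 and -2.05 for MGE, -0.0258 and -0.778 for Npy and 0.00446 and -0.126 for Vip. With the P7 libraries counted as 1, genes at matched UMIs stood at 0.00234. The causes of these shifts were not tested.

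Leaving out each library gave, for P7 minus P1, -1.98 to -1.17 percentage points of all cells, -27.3 to -17.9 of interneurons and -14.8 to -5.42 of CGE and Sst cells, -103 (without library 4) to 973.5 UMIs, -3.00 (without library 4) to 347 genes and 0.947 to 1.10 percentage points of mitochondrial share. Against Sst it gave -0.41 to -0.18 for UMIs, -0.28 to -0.11 for genes, -0.835 to -0.723 for mitochondrial share and -0.00603 to 0.00378 for genes at matched UMIs (0.000895 without library 2, 0.00378 without library 1). The age difference of these contrasts ran from -0.64 to -0.37 (UMIs), from -0.45 to -0.27 (genes) and from -0.270 to 0.0157 (mitochondrial share, above 0 without library 1). The mean P1_100 share ran from 31.6% to 52.8% and its UMI contrast from 1.19 to 1.39. Each share rests on 130 to 312 CGE cells per library, and each test on at most 5 libraries.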

Other observations

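Of the P1 libraries, library 4 alone held CGE or Sst cells with under 1100 genes, near the minimum of 1000, and its shallowest cells had fewer UMIs in every type. They were 7.69% of its CGE cells and none of those of libraries 3 and 5, whose lowest CGE cells had 1170 and 1159 genes. Sst cells showed the same order, with 3.50% in library 4 and none in libraries 3 and 5. The lowest UMI count of a cell was 1647 to 1759 over the 8 types of library 4, and 1995 to 2204 over those of libraries 3 and 5. By subcluster of library 4, cells under 1100 genes were 13.6% of P1_102, 10.9% of P1_103, 7.61% of P1_101 and none of the 84 cells of P1_100. At P7 they were 0.769% and 0.730% of CGE cells in libraries 1 and 2.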
